A study of Mus musculus with 16 samples.

Results

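The angiopoietins, their Tie receptors and the angiopoietin-like genes were followed in RNA-seq libraries of mouse tail tendon fascicles, the collagen bundles drawn from the tail. The family was taken by gene symbol and held 9 of the 25719 genes in the count tables. It comprised the ligands Angpt1 and Angpt2, the receptors Tek and Tie1, and 5 angiopoietin-like genes, Angptl1, Angptl2, Angptl4, Angptl6 and Angptl7. Each symbol matched 1 Ensembl gene, and each gene had counts in both genotypes. Of the 9, 8 passed the filter on low counts, and Tie1 was left out by it. The 16 libraries were labelled KO or WT, 8 of each, with all tissue cells as the cell type. The series describes the knockout as ScxCre;Vhlf/f, so floxed Vhl alleles were exposed to Cre recombinase under control of the tendon gene Scx. Cells that never expressed Scx were not targeted by this driver. Whether the wild type animals carried a floxed allele or the Cre, and the strain, age and sex of the animals, were not given in the sources used here. The labels do not say that each library came from its own animal, so p-values measure the spread between libraries, which may be technical in part.

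Angpt1 is a ligand made by perivascular and mesenchymal cells that activates Tek, also called Tie2, on the endothelium and keeps vessels quiescent. Angpt2 is released by endothelial cells and can block or activate the same receptor depending on context. Tie1 acts mainly in complex with Tek. The angiopoietin-like proteins have a similar coiled-coil and fibrinogen-like structure but do not bind Tek. They act on lipid handling, inflammation and matrix. Vhl is the substrate-recognition part of the ubiquitin ligase that removes hydroxylated hypoxia-inducible factors, and Angptl4 and Angpt2 are known in other tissues as genes induced in hypoxia. Tendon is a poorly vascularised tissue, in which Tie receptors are usually read as endothelial genes.

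RefSeq promoter windows (assembly GRCm38.p6) were matched for 6 of the 9 genes, Tek, Tie1, Angptl1, Angptl2, Angptl6 and Angptl7, and not for Angpt1, Angpt2 and Angptl4. The 250 bases before each start were searched on both strands for ACGTG and GCGTG, the core letters of hypoxia response elements, and for the E-box CANNTG, the element of basic helix-loop-helix factors such as Scx. An ACGTG match can share letters with an E-box. None of the 6 windows held ACGTG or GCGTG, against 38.6% of 32851 windows of the same length. This says nothing of Angpt1, Angpt2 and Angptl4, or of sequence outside the windows. All 6 held at least 1 E-box, against 66.2% of the windows. The windows of Angptl1, Tie1 and Angptl6 overlapped annotated exons and are not shown, and that of Tek ran too far into its gene. The windows of Angptl7 and Angptl2 are shown because they overlapped no annotated exon and lay wholly or almost wholly before the gene. Each held 3 E-boxes, which are in capitals. The Angptl7 window is the minus strand of chr4:148500463-148500712, and the Angptl2 window is the plus strand of chr2:33215711-33215950, the 240 bases before the annotated gene. A match describes the letters only and is no evidence of binding.
Angptl7: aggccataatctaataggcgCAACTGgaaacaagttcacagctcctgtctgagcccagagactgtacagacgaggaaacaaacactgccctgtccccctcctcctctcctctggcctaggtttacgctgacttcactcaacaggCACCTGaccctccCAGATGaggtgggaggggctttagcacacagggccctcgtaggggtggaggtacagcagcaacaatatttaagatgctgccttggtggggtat
Angptl2: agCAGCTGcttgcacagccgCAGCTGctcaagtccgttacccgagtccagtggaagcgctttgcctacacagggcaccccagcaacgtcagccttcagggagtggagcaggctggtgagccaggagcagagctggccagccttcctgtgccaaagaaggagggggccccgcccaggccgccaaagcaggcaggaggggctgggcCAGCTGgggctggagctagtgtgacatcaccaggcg

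Library totals ran from 10488355 to 18753254 counts for KO and from 10792900 to 16379401 counts for WT. Vhl itself was at 7.51 to 10.9 CPM (counts scaled to a common library size with TMM factors) in KO and at 14.1 to 25.8 CPM in WT, so every library followed its label. The Y-linked genes Ddx3y, Kdm5d, Uty and Eif2s3y summed to 202 to 218 CPM in KO 1, KO 6, WT 7 and WT 8. In every other library the sum was at most 0.05 CPM, so each genotype held libraries with and without male tissue. Across the transcriptome 7151 of 14803 tested genes passed an adjusted p of 0.05 (48.3%), which is the background for the counts below. Marker levels of other cell types also differed between the libraries. Summed over 15 endothelial markers, the level was 49.7 to 627 CPM in KO and 25.7 to 36.7 CPM in WT, and 10 of the 11 tested markers were higher. None of the 15 was at 0 in every wild type library. Of 11 mural cell markers, 9 were tested, 6 were higher and 1 was lower, with sums of 340 to 1650 CPM against 358 to 476 CPM. Cspg4 and Pdgfrb made up most of the wild type sum, at 166 to 247 CPM and 120 to 191 CPM. Their log2 fold changes were -0.27 and -0.20, so the sums hide the rise of less abundant markers. Rgs5, with the largest rise of those tested, was at 34.2 to 724 CPM in KO and 0.15 to 19.6 CPM in WT. Skeletal muscle markers spread widely within both genotypes, at 137 to 8210 CPM and 51.8 to 4290 CPM, and 1 of 12 was called. Tenocyte markers were lower for 7 of 10 genes and higher for 1, with sums of 83500 to 185000 CPM against 138000 to 387000 CPM. Erythroid markers were higher for 5 of 5 tested genes, with sums of 77.8 to 562 CPM against 15.1 to 50.7 CPM. Macrophage markers were higher for 3 of 9, with sums of 1330 to 1970 CPM against 1210 to 1770 CPM. In bulk libraries fewer cells of a type and less RNA per cell cannot be told apart.

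Of the 8 tested members, 4 were higher (Angptl4, Angptl1, Angpt2 and Angptl6) and 2 were lower (Angptl7, and Angptl2 on the TMM scale but not with total counts) in the knockout by edgeR's quasi-likelihood F test. Angpt1 and Tek did not pass the threshold. The 6 of 8 stand beside 48.3% of all tested genes, 25.6% called higher and 22.7% called lower. Their median log2 fold change was 0.47, against 0.02 for all tested genes. In 3 of the 8, Angptl1, Angptl4 and Angptl7, the genotypes did not overlap, which held for 19.4% of tested genes (10.8% with KO above WT, 8.61% with KO below). Scaling to total counts alone moved the median of all tested genes to 0.32, and on that scale Angptl2 was at 0.03 and no longer called.

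**Figure D1:**
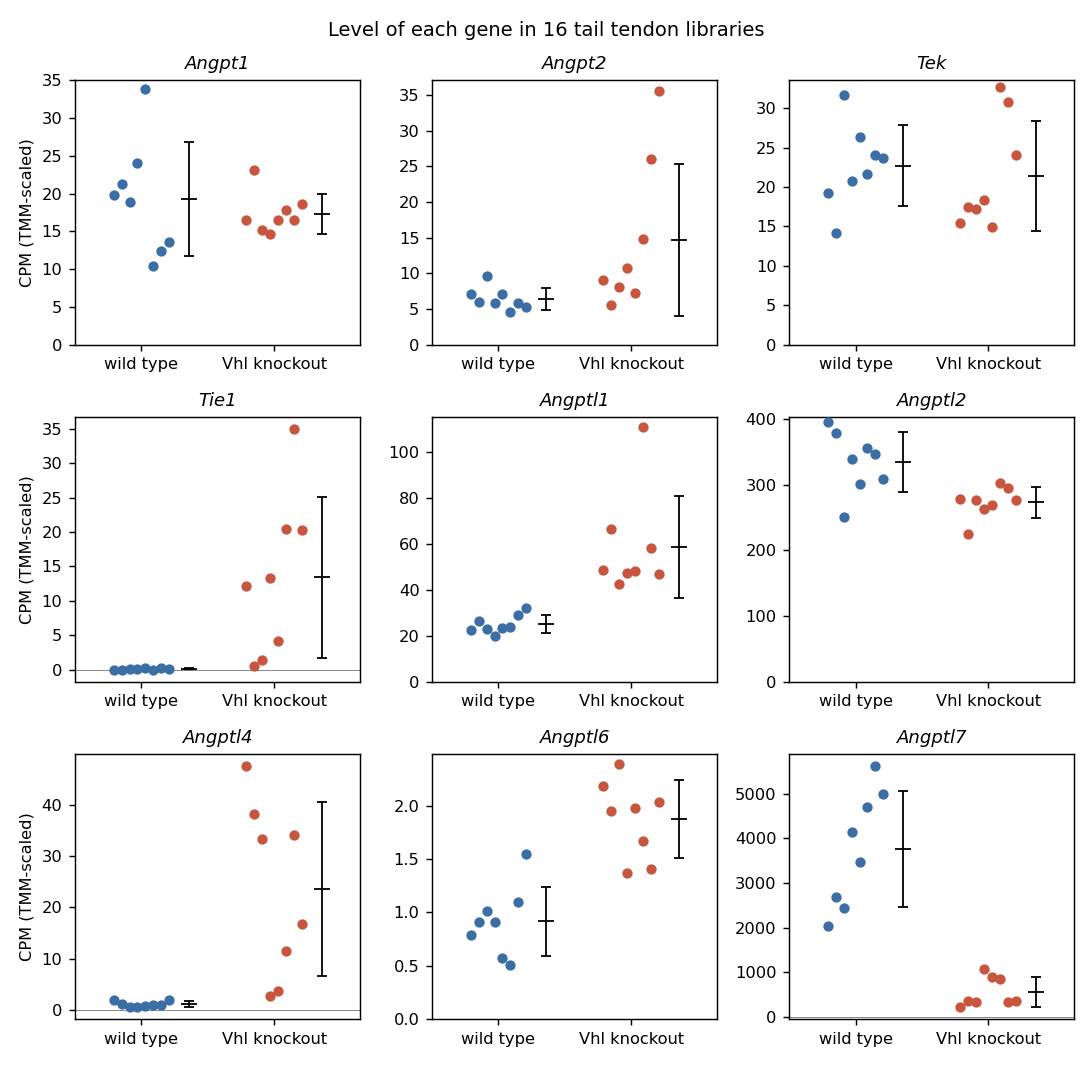
CPM (TMM-scaled) of the 9 genes, 1 panel per gene with its own axis from 0; each point is 1 library of 8 wild type or 8 Vhl knockout libraries, and the cross and bar beside each group are mean ± SD. Tie1, Angptl1, Angptl4 and Angptl7 show no overlap between the genotypes, and Angpt1 and Tek lie in the same range in both.

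Angpt1, the activating ligand, did not pass the threshold. It was at 14.6 to 23.1 CPM (median 16.5) in knockout libraries and at 10.5 to 33.9 CPM (median 19.4) in wild type libraries. The wild type libraries enclosed all knockout libraries, with WT 5 the highest and WT 6 the lowest of all 16. Between genotypes the log2 difference was -0.16 (SE 0.191; edgeR quasi-likelihood F test, Benjamini-Hochberg adjusted p = 0.528). Without WT 5 it was 0.01, and with total counts it was 0.14. In the GENCODE M21 annotation 14.2% of the exon length of Angpt1, on chromosome 15, overlaps the opposite-strand gene Gm17473, and whether counting used strand is not given in the sources used here.

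Angpt2, the context-dependent ligand, was higher in the knockout, but unevenly so. It was at 5.61 to 35.6 CPM (median 9.92) in knockout libraries and at 4.64 to 9.68 CPM (median 5.92) in wild type libraries. KO 6, KO 7 and KO 8, at 14.9, 26.1 and 35.6 CPM, and KO 4, at 10.8 CPM, exceeded every wild type library, and the other 4 knockout libraries lay within the wild type range. As a log2 fold change this was 1.19 (SE 0.356; edgeR quasi-likelihood F test, Benjamini-Hochberg adjusted p = 0.0113).

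KO 6, KO 7 and KO 8 were also the knockout libraries with the highest skeletal muscle scores, the mean log2 CPM of 12 muscle markers. With that score as a covariate the Angpt2 fold change was 0.59 and the edgeR adjusted p was 0.129. Without the 3 libraries of each genotype that scored highest it was 0.32 and the edgeR adjusted p was 0.267. Within the knockout Angpt2 rose with the muscle score (Pearson r = 0.901, exact permutation, adjusted p = 0.0194; Spearman rho = 0.881, adjusted p = 0.0704, n = 8; r = 0.817 without KO 7 and KO 8). It also rose with the score of 11 endothelial markers (r = 0.894, exact permutation, adjusted p = 0.0236; rho = 0.952, adjusted p = 0.0129, n = 8; r = 0.821 without KO 2 and KO 7). The mural score gave r = 0.929 (exact permutation, adjusted p = 0.00801; rho = 0.952, n = 8) and the score of the adipocyte markers Plin4 and Fabp4 gave r = 0.914 (exact permutation, adjusted p = 0.00944; rho = 0.976, n = 8). These scores moved together in the same libraries. Of 7 adipocyte markers only Plin4 and Fabp4 were tested, and the medians of the others in KO ran from 0 to 1.30 CPM. That score thus rests on these genes and is not a measure of adipocyte content. In the wild type the muscle score ran from 0.79 to 8.12. There Angpt2 gave r = 0.369 with it (exact permutation, adjusted p = 0.726, rho = 0.31, n = 8). Angpt2 lies within the span of Mcph1 on chromosome 8, and Mcph1 had a log2 fold change of 0.40 (edgeR adjusted p = 5.30e-04).

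The balance of the ligands was read within each library, where scaling has no effect. On the log2 CPM scale Angpt2 minus Angpt1 had a mean of -0.51 ± 0.964 over KO and -1.51 ± 0.462 over WT libraries (SD, n = 8). The knockout ran from -2.01 to 0.93 and the wild type from -2.23 to -0.95, so the genotypes overlapped. The difference between them was 1.00 (two-sided exact permutation test, p = 0.0171, adjusted over 5 within-library differences to 0.0171). Without the 3 libraries of each genotype with the highest muscle score it was 0.27 (exact permutation test, p = 0.389, unadjusted).

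Tek, the receptor of both ligands, did not pass the threshold. It was at 14.9 to 32.7 CPM (median 17.9) in knockout libraries and at 14.2 to 31.7 CPM (median 22.7) in wild type libraries. The ranges nearly coincided, with KO 6, KO 7 and KO 8 again the highest knockout libraries and the other 5 between 14.9 and 18.3 CPM. The fitted log2 difference was -0.08 (SE 0.184; edgeR quasi-likelihood F test, Benjamini-Hochberg adjusted p = 0.738), and it was 0.21 when scaled to total counts. Without the 3 libraries of each genotype with the highest muscle score it was -0.41 (edgeR adjusted p = 0.0703).

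Tie1, the partner receptor, was close to absent in the wild type and present in every knockout library. Counts in the wild type did not exceed 3, the floor used here, and 3 of the 8 libraries had none, which allows a level of up to 0.336 CPM. In the knockout the lowest library had 7 counts, and levels ran from 0.60 to 35.0 CPM (median 12.7), against at most 0.30 CPM in the wild type. The genotypes did not overlap, although KO 2 at 0.60 CPM and KO 3 at 1.37 CPM were below the other 6. Summed over libraries there were 1787 knockout and 9 wild type counts, a ratio of 151 after library size and TMM scaling (exact 95% interval 79.6 to 332, counting error only). A fit without the expression filter gave a log2 fold change of 6.96 (SE 1.00; edgeR quasi-likelihood F test, Benjamini-Hochberg adjusted p = 4.92e-05), in which 38.4% of 21380 genes were called and 21.4% of the 21380 were called higher. That fold change depends on the prior count, since the wild type was at the floor.

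The receptors thus differed in their relation to each other within a library. Tie1 minus Tek had a mean of -1.43 ± 1.74 over KO and -6.59 ± 0.53 over WT libraries on the log2 CPM scale (SD, n = 8). The difference of 5.16 had the smallest p that 8 against 8 libraries allow (two-sided exact permutation test, p = 0.000155, adjusted p = 0.000194). Tek by itself had a log2 fold change of -0.08, so this test largely restates the rise of Tie1. The prior count sets the wild type value of Tie1, and with other prior counts the difference lay between 4.24 and 6.33.

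Both receptors and Angpt2 were set against endothelial markers within each library. Tek minus the endothelial score averaged 0.72 ± 1.07 over KO and 3.79 ± 0.303 over WT libraries, a difference of -3.07. Angpt2 minus the score was -0.04 ± 0.689 and 1.99 ± 0.392, a difference of -2.03. Tie1 minus the score was -0.71 ± 0.732 and -2.80 ± 0.39, a difference of 2.09. All 3 had p = 0.000155 by the two-sided exact permutation test (SD, n = 8; adjusted p = 0.000194). Relative to the mean of the 11 tested markers, Tek and Angpt2 were thus lower in the knockout. That mean was itself 1.60 to 5.44 in KO and 0.33 to 1.23 in WT libraries. A gene with no genotype change falls relative to it, so the tests of Tek and Angpt2 largely restate its rise. By themselves Tek had a log2 fold change of -0.08 and Angpt2 of 1.19. For Tie1 the value depends on which markers form the score and on the prior count, which gave 1.43 to 3.02. Within the score Robo4 and Pecam1 had log2 fold changes of 7.04 and 6.11, and Erg and Esam of 1.20 and 0.96. The 4 markers too low for the score, Sox18, Cldn5, Emcn and Sox17, had 6.34, 5.92, 5.39 and 4.93 in the fit without a filter, beside 6.96 for Tie1. Without the 3 libraries of each genotype with the highest muscle score the differences were -2.66, -1.97 and 2.10 (exact permutation test, p = 0.00794 each, the smallest that 5 against 5 libraries allow).

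**Figure D2:**
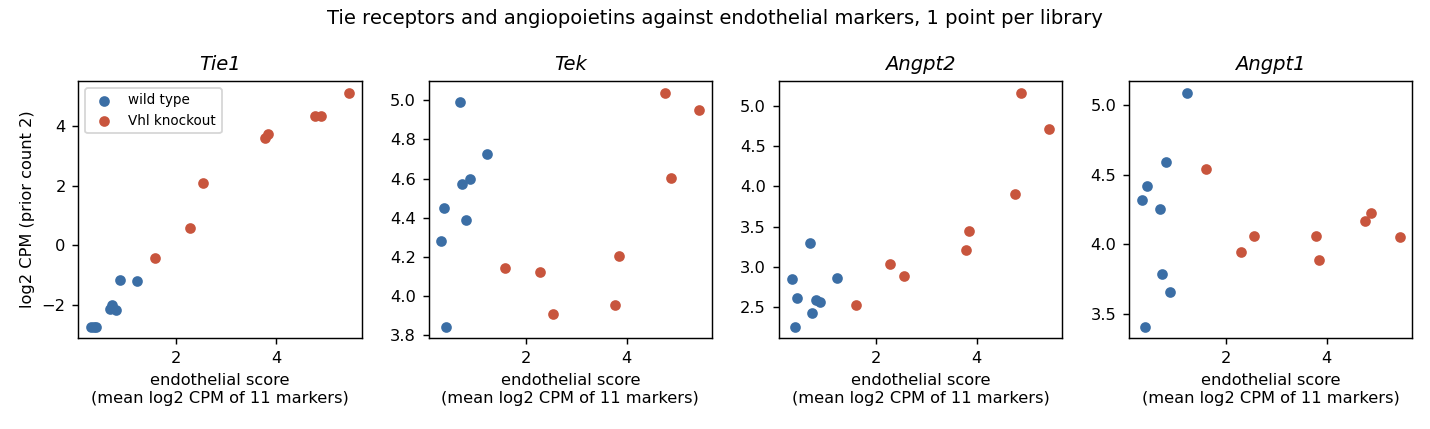
Log2 CPM (prior count 2) of Tie1, Tek, Angpt2 and Angpt1 on the vertical axes against the endothelial score, the mean log2 CPM of 11 markers, on the horizontal axes; each point is 1 of 16 libraries, coloured by genotype. The score was 0.33 to 1.23 for WT and 1.60 to 5.44 for KO, and within the knockout Tie1 and Angpt2 climb with it.

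Within the knockout Tie1 followed the endothelial score most closely of the 9 genes (r = 0.969, exact permutation, adjusted p = 0.00253; rho = 0.976, adjusted p = 0.00899, n = 8; r = 0.946 without KO 2 and KO 7). Tek gave r = 0.774 (exact permutation, adjusted p = 0.152; rho = 0.714, adjusted p = 0.245, n = 8; r = 0.763 without the same libraries), Angptl4 gave r = -0.03 and Angptl7 gave r = 0.03. For Tek the muscle score gave r = 0.885 (exact permutation, adjusted p = 0.0628, n = 8). Tie1 followed the mural score almost as closely as the endothelial score (r = 0.947, exact permutation, adjusted p = 0.00253, rho = 0.976, n = 8). The score of Plin4 and Fabp4 gave r = 0.935 with Tie1 (exact permutation, adjusted p = 0.00337, rho = 0.952, n = 8). With the muscle score Tie1 gave r = 0.745 (exact permutation, adjusted p = 0.162, n = 8). Of 36 relations of a gene to 1 of 4 marker scores in the knockout, 7 passed an adjusted p of 0.05 for r, all of them Angpt2 or Tie1, and 6 also passed for rho. None of 32 passed in the wild type, where Tie1 was left out. There the endothelial score ran from 0.33 to 1.23, against 1.60 to 5.44 in the knockout. The counts of the genotypes are therefore not like for like. Adjustment was over all 68. The part of endothelial, mural, erythroid or muscle cell content in the Tie1 and Angpt2 differences was not tested beyond these values.

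Lymphatic endothelium, which also uses Tek and Angpt2, was read from 5 markers. Their sum was 29.8 to 65.4 CPM in KO and 69.7 to 126 CPM in WT, and of 4 tested markers 2 were lower and none was higher. Lyve1, which macrophages of connective tissue also express, made up most of the sum at 28.3 to 47.3 CPM against 63.1 to 119 CPM. The chemokine gene Ccl21a, which has near-identical copies and is therefore uncertain, was at 1.93 to 4.31 CPM in WT and at most 0.085 CPM in KO libraries (edgeR adjusted p = 1.99e-11). Flt4, too low for the main test, had a log2 fold change of 5.60 in the fit without a filter (edgeR adjusted p = 3.86e-05).

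Among the angiopoietin-like genes Angptl4, a secreted inhibitor of lipoprotein lipase, had the largest increase of the tested members. It was at 2.73 to 47.6 CPM (median 25.1) in knockout libraries and at 0.56 to 1.91 CPM (median 1.00) in wild type libraries. Every knockout library was above every wild type library, but KO 4 at 2.73 CPM and KO 5 at 3.71 CPM were close to the wild type. Its log2 fold change came to 4.42 (SE 0.631; edgeR quasi-likelihood F test, Benjamini-Hochberg adjusted p = 3.12e-05), or 21.5-fold. It ranked 112th from the top among 14803 tested genes. Without the 3 libraries of each genotype with the highest muscle score the log2 fold change was 4.28 (edgeR adjusted p = 0.00694). Markers of adipocytes, which express Angptl4, summed to 2.81 to 77.6 CPM in KO and 2.12 to 10.1 CPM in WT. Of these 7 markers only Plin4 and Fabp4 were tested and entered the score, which gave r = -0.05 with Angptl4 within the knockout.

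Angptl7, a secreted protein known from the cornea and other collagen-rich tissue, was the member with the highest level per exon length and had the largest decrease. It was at 230 to 1081 CPM (median 365) in knockout libraries and at 2045 to 5621 CPM (median 3806) in wild type libraries. KO 4 was the highest knockout library, and WT 1, the lowest wild type library, was still above it, so the genotypes did not overlap. In the fit the log2 change was -2.75 (SE 0.351; edgeR quasi-likelihood F test, Benjamini-Hochberg adjusted p = 5.73e-06), which left 0.149 of the wild type level. It ranked 82nd from the bottom of 14803 tested genes. The 10 tenocyte markers had a median log2 fold change of -0.85. Their part in the Angptl7 difference was not tested. Angptl7 lies within the span of Mtor on chromosome 4, and Mtor had a log2 fold change of 0.06 (edgeR adjusted p = 0.625).

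Angptl1, a member with vessel-restraining activity in experimental models, was higher in every knockout library. It was at 42.7 to 110.9 CPM (median 48.4) in knockout libraries and at 20.1 to 32.2 CPM (median 23.8) in wild type libraries. KO 6, at 110.9 CPM, stood well above the other 7 knockout libraries, of which the highest was at 66.6 CPM. The fit gave a log2 change of 1.23 (SE 0.176; edgeR quasi-likelihood F test, Benjamini-Hochberg adjusted p = 1.54e-05), and without KO 6 and the other muscle-rich libraries it was 0.98 (edgeR adjusted p = 2.72e-05). Angptl1 lies on chromosome 1 within the span of Ralgps2, which had a log2 fold change of 0.39. On the opposite strand Gm37802 overlaps 16.4% of its exon length, and it had a log2 fold change of 1.30 (edgeR adjusted p = 2.18e-06). Gm37802 also had the most similar profile to Angptl1. Reads from the overlap of the 2 genes cannot be told apart unless counting used strand.

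Angptl2, a ligand of integrins and of leukocyte receptors with roles in inflammation and matrix, was slightly lower on the TMM scale. It was at 224.7 to 302.6 CPM (median 276.5) in knockout libraries and at 250.3 to 394.9 CPM (median 343) in wild type libraries. The ranges overlapped, since WT 3 at 250.3 CPM was below 7 of the 8 knockout libraries. On the log2 scale the change was -0.29 (SE 0.0870; edgeR quasi-likelihood F test, Benjamini-Hochberg adjusted p = 0.00957), and with total counts it was 0.03 (edgeR adjusted p = 0.777). Angptl2 lies within the span of Ralgps1 on chromosome 2. Ralgps1 had a log2 fold change of -0.52 (edgeR adjusted p = 1.70e-04), and -0.21 with total counts (edgeR adjusted p = 0.0785).

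Angptl6, a secreted protein linked to metabolism, had few counts in every library and more of them in the knockout. It was at 1.37 to 2.39 CPM (median 1.97) in knockout libraries and at 0.51 to 1.55 CPM (median 0.91) in wild type libraries. Only WT 8, at 1.55 CPM, reached into the knockout range. Its fitted log2 change was 1.02 (SE 0.203; edgeR quasi-likelihood F test, Benjamini-Hochberg adjusted p = 3.58e-04). Its counts were at most 40 in any KO library and 16 in any WT library. A230050P20Rik on the opposite strand overlaps 16.8% of its exon length on chromosome 9 and had a log2 fold change of 1.40 (edgeR adjusted p = 3.38e-05), so this value is uncertain in the same way.

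**Figure D3:**
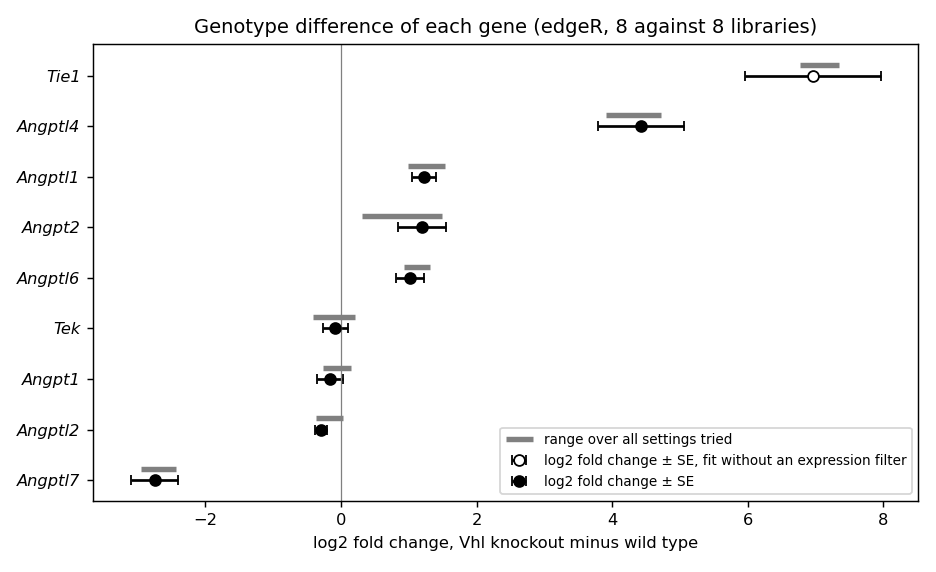
Log2 fold change of each of the 9 genes, Vhl knockout minus wild type, from edgeR; points and bars are the estimate ± SE, the grey bars above span all other settings tried, and the open point for Tie1 is from the fit without an expression filter. The bars of Angpt1, Tek and Angptl2 cross 0, and the bar of Angpt2 reaches down to 0.32.

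Angptl4 and Angptl7 varied in opposite directions among the knockout libraries. KO 4 and KO 5 had the lowest Angptl4, at 2.73 and 3.71 CPM, and the highest Angptl7, at 1081 and 901 CPM. KO 1 had the highest Angptl4, at 47.6 CPM, and the lowest Angptl7, at 230 CPM. The correlation of their log2 CPM in the knockout was r = -0.931 (exact permutation, p = 0.000248, adjusted over 64 pairs to 0.0159; rho = -0.905, p = 0.00456, adjusted p = 0.146, n = 8). Without KO 4 and KO 5 it was -0.866. In the wild type it was -0.10 (exact permutation, p = 0.803, adjusted p = 0.99, n = 8). The pair was singled out after its values were seen, and the difference between the genotypes was not tested.

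**Figure D4:**
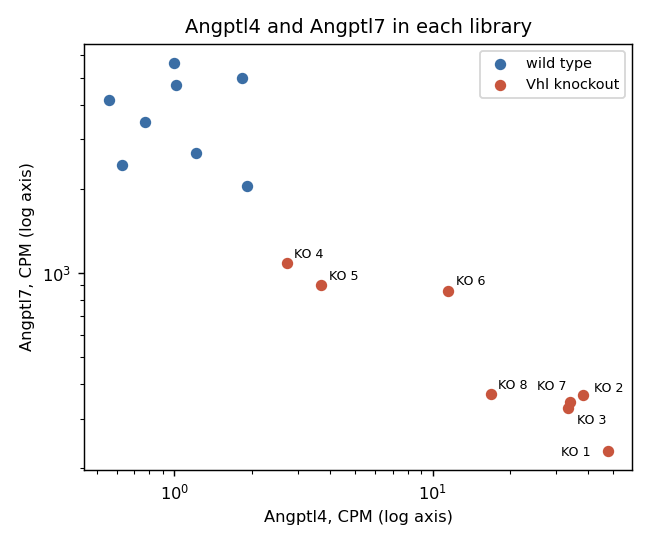
CPM of Angptl4 on the horizontal and Angptl7 on the vertical axis, both log axes; each point is 1 of 16 libraries and knockout libraries carry their replicate number. The knockout libraries run from KO 4 at high Angptl7 and low Angptl4 to KO 1 at the opposite end, and the wild type libraries show no such line.

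Levels of different genes were compared as CPM per kilobase of exon, with exon lengths from GENCODE M21. In the wild type Angptl7 was highest at 1740 ± 605 CPM per kilobase, followed by Angptl2 at 53.2 ± 7.37 and Angptl1 at 8.85 ± 1.38 (SD, n = 8). Tek at 4.82 ± 1.09 and Angpt1 at 3.71 ± 1.45 came next, then Angpt2 at 1.74 ± 0.423 and Angptl6 at 0.58 ± 0.205. Angptl4 was at 0.314 ± 0.145 and Tie1 at 0.0211 ± 0.025 CPM per kilobase. Every neighbouring pair in this order was separated in 8 of 8 libraries (exact sign-flip permutation, adjusted p = 0.0125 over 16 pairs, n = 8) except Tek and Angpt1 (adjusted p = 0.135).

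In the knockout the top of the order was the same, with Angptl7 at 259 ± 153, Angptl2 at 43.5 ± 3.74 and Angptl1 at 20.7 ± 7.88 CPM per kilobase (SD, n = 8). Angptl4 moved up to 6.64 ± 4.79, beside Tek at 4.54 ± 1.49. Angpt1 at 3.33 ± 0.51, Angpt2 at 3.97 ± 2.89, Tie1 at 2.73 ± 2.38 and Angptl6 at 1.18 ± 0.23 CPM per kilobase followed. From Angptl4 downward no neighbouring pair was separated (exact sign-flip permutation, adjusted p between 0.0682 and 0.977, n = 8). Angptl4 was above Tek in 4 of the 8 knockout libraries and below it in the other 4.

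**Figure D5:**
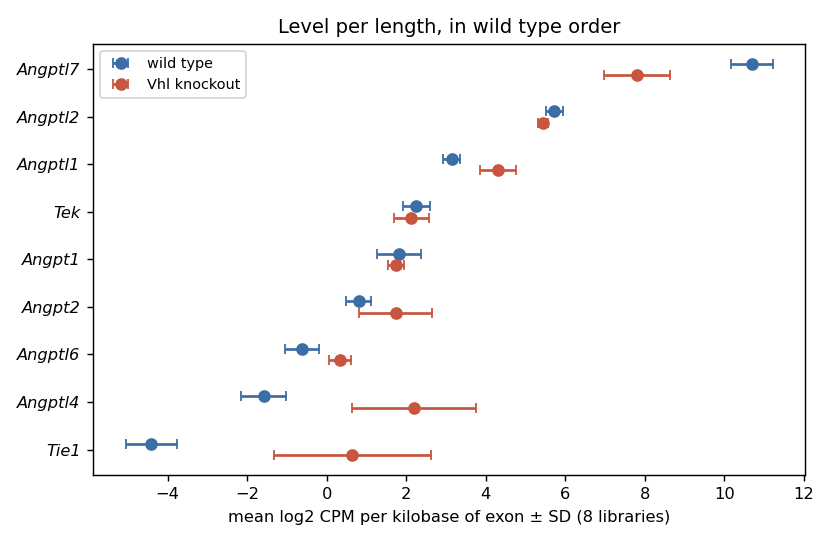
Mean log2 CPM per kilobase of exon ± SD over 8 libraries for each gene and genotype, genes in the order of the wild type. Angptl7 leads in both genotypes, and Angptl4 and Tie1, the lowest in the wild type, show the largest shifts and the widest spread in the knockout.

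Genes that act with the Tie receptors were read from a list of 17, of which 14 were tested. Of these 4 were higher, 4 were lower and 6 did not pass, with a median log2 fold change of 0.00 against 0.02 for all tested genes. Over all tested genes 25.6% were called higher and 22.7% lower, which is near the share in this list. Ptprb, the vascular phosphatase that keeps Tek inactive, was at 9.69 to 163 CPM (median 35.2) in KO and 0.98 to 6.24 CPM (median 2.13) in WT libraries. All knockout libraries exceeded all wild type libraries, and the log2 fold change was 4.52 (edgeR adjusted p = 9.09e-05). Grb14, an adaptor of receptor kinases, rose by 1.17, Itga5, an integrin subunit that angiopoietins can engage, by 0.82, and the NF-kappaB regulator Tnip2 by 0.21. Pik3r1, the regulatory subunit of PI3-kinase, fell by 1.15 (log2) without overlap, with WT libraries at 580 to 963 CPM and KO libraries at 290 to 395 CPM. Foxo1, the transcription factor that Tek signalling restrains and that drives Angpt2, fell by 0.62, Dok2 by 0.56 and Akt1 by 0.24. With total counts 9 of 14 were higher and 2 lower, and Dok2 and Akt1 were not called. Without the 3 libraries of each genotype with the highest muscle score Dok2, Akt1 and Tnip2 were not called either (edgeR adjusted p = 0.0955, 0.172 and 0.101), nor was Akt1 with the muscle score as a covariate (edgeR adjusted p = 0.0616). Svep1, a matrix protein that binds Tie1, had a log2 fold change of -0.17 (edgeR adjusted p = 0.320), which was -0.46 without the muscle-rich libraries (edgeR adjusted p = 0.0112) and 0.14 with total counts. Angpt4, Lect2 and Grb7 were too low to test.

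Partners of the angiopoietin-like proteins formed a list of 16, of which 13 were tested, 9 were higher, none was lower and 4 did not pass. The median log2 fold change was 0.35, and 25.6% of all tested genes were called higher and 22.7% lower. With total counts 11 of 13 were higher and none was lower. Lpl, the lipase that Angptl4 inhibits, was at 34.4 to 50.6 CPM in KO and 35.2 to 58.9 CPM in WT libraries. These ranges overlapped almost fully, and the log2 fold change was -0.05 (edgeR adjusted p = 0.725). Gpihbp1, the endothelial protein that holds Lpl on capillaries, was not tested and had 881 knockout and 3 wild type counts, a ratio of 224 (exact 95% interval 76.4 to 1090, counting error only). Lmf1, which folds Lpl, rose by 0.80 (edgeR adjusted p = 2.00e-07), the integrin subunits Itgb3 and Itgav by 0.87 and 0.22, and the leukocyte receptors Pirb and Lilrb4a by 0.85 and 0.40. The 3 called macrophage markers, Adgre1, Lyz2 and Cd163, rose by 0.41, 0.41 and 0.38, and their part in the receptor values was not tested. The proprotein convertases Pcsk6, Pcsk5 and Pcsk7, of the family that cleaves angiopoietin-like proteins, rose by 0.54, 0.35 and 0.20, while Furin had a log2 fold change of 0.03. Pcsk5 was not called with DESeq2 size factors (edgeR adjusted p = 0.0554) or with the muscle score as a covariate (edgeR adjusted p = 0.122), and Pcsk7 not without the muscle-rich libraries (edgeR adjusted p = 0.0805). Angptl8, a related secreted protein, had a log2 fold change of -0.31 (edgeR adjusted p = 0.189).

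Other genes with a fibrinogen-like domain were read from a list of 13, of which 6 were tested, 2 were higher and 4 were lower. The median log2 fold change was -0.82, beside 25.6% of all tested genes called higher and 22.7% called lower. Mfap4, an elastic fibre protein, was at 5.83 to 24.2 CPM in KO and 45.2 to 148 CPM in WT libraries without overlap (log2 fold change -3.03, edgeR adjusted p = 8.59e-07). Fgl2 fell by 1.40, Fcna by 0.98 and Tnxb, the tendon matrix protein tenascin-X, by 0.66. Tnn, or tenascin-W, rose by 4.25, with WT libraries at 0 to 0.68 CPM and KO libraries at 1.19 to 20.8 CPM. Tnc, or tenascin-C, rose by 0.51 (edgeR adjusted p = 0.0357), a call lost with the muscle score as a covariate (edgeR adjusted p = 0.084). Members of this list thus moved in both directions, as the angiopoietin-like genes themselves did. Fga and Fgg were at 0 in every library.

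The genes whose profile was most like each member were taken over 16 libraries after each genotype's mean was removed, among 13416 tested genes. These Pearson correlations are descriptions of libraries that share depth and cell content. For Tie1 they were the endothelial genes Kdr (r = 0.957), Spns2 (0.944) and Egfl7 (0.944). For Tek they were Mustn1 (r = 0.968), Smoc2 (0.929) and Fxyd1 (0.926), of which Mustn1 is a musculoskeletal gene, and no endothelial marker was among them. Angpt2 was closest to Gnb4 (r = 0.930), Arhgef7 (0.912) and Id4 (0.903), and Angpt1 to Lztfl1 (r = 0.925), Cpeb2 (0.877) and Fam208b (0.869). Angptl4 was closest to Usp40 (r = 0.863), Olfml2b (0.859) and Rapsn (0.856), and Angptl7 to Rcl1 (r = 0.916), Dcun1d3 (0.887) and Dok1 (0.884). Angptl1 was closest to its overlapping gene Gm37802 (r = 0.926), then Ebpl (0.844) and Ctso (0.834). Angptl2 was closest to Neurl2 (r = 0.824), Tmem44 (0.808) and Ip6k3 (0.802), and Angptl6 to Gm20422 (r = 0.862), Zbtb9 (0.835) and Ddit3 (0.804).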

How the data were processed

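Per the labels, tail tendon fascicles were frozen and ground, and total RNA was cleaned of genomic DNA before standard Illumina library preparation. The authors deposited whole-number counts per gene, 1 table per library. The submitters' processing notes name kallisto, featureCounts and GRCm39, with no role or version, and the use of strand is not given in the sources used here. Of 25719 identifiers, 25614 matched a symbol and 105 did not. GENCODE M21 gave chromosomes, exon lengths and overlaps, and no coordinates of the count features were taken from it.

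All 9 members were named, with fixed lists of partners, host genes and cell markers, and from each list at most 8 genes by size of change plus any named for its role. Members and lists were chosen with earlier results of these data known. Of the listed partner genes, 1 is counted in its list and not reported here by name. The fit used edgeR 4.0.16 in R 4.3.3 (quasi-likelihood F test, robust, TMM, default filter, genotype as the only term, two-sided, Benjamini-Hochberg over 14803 genes, threshold 0.05); 10916 genes were not tested. Log2 CPM used a prior count of 2. A floor of 3 counts was 0.146 to 0.336 CPM; intervals cover counting error only. No library pair was a repeat (chi-square per degree of freedom of at least 6.56). On simulated counts over 14408 genes, the fit called 85.7% of 98 genes changed by 1 and 97.9% of 97 changed by 2 (log2), and 10 of 14213 unchanged genes. Single values were compared by exact permutation of libraries between genotypes (12870 assignments, smallest p 0.000155).

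Alternatives were DESeq2 size factors, total counts, TMM without the 20 most abundant genes, no filter, a minimum mean count of 10, DESeq2 1.42.0 (Wald test), limma 3.58.1 voom with quality weights, non-robust dispersions, the replicate block, muscle and Y-linked covariates, surrogate variables (sva 3.50.0), other prior counts and each library left out. The fit without the 3 most muscle-rich libraries of each genotype (KO 6, 7 and 8, WT 4, 5 and 7), the Tie1 fit without a filter and the pairs of members were added after seeing the data.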

Additional observations from a re-analysis of the deposited data

Results flagged for a closer look

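Within each genotype, every member, within-library difference and marker score was checked for a library set apart from the others by the Dixon ratio, and 2 of 48 groups were flagged, where chance gives about 2.4. Angptl1 in KO 6 was at 6.79 log2 CPM, with the next knockout library at 6.06. Angptl2 in KO 2 was at 7.81 log2 CPM, with the next lowest at 8.04. KO 6 was among the muscle-rich libraries, with a muscle score of 8.11. KO 7 and KO 8 scored higher, at 8.71 and 8.6, and had Angptl1 at 58.4 and 46.9 CPM. KO 6 also had Y-linked transcripts, as did KO 1, where Angptl1 was at 48.7 CPM. In the wild type those with Y-linked transcripts, WT 7 and WT 8, had the highest Angptl1, at 29.2 and 32.2 CPM. With the Y-linked level as a covariate the Angptl1 log2 fold change was 1.21 (edgeR adjusted p = 8.39e-07). The part of muscle or sex in the Angptl1 level of KO 6 was not tested. The Angptl1 difference between genotypes kept its call in each fit that left out 1 library, with log2 fold changes between 1.03 and 1.28.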

How the results depend on the processing

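The Angptl1, Angptl4, Angptl6 and Angptl7 calls held in every fit tried, and the Tie1 call in the 11 fits that could include it. Members called numbered 5 to 7 and genes called 5710 to 9685 over the settings, and 6 to 7 and 6790 to 7151 when 1 library was left out. Total counts reversed the sign of Angpt1 (0.14), Tek (0.21) and Angptl2 (0.0257), and raised the share of called genes that were higher from 53% to 85.4%. Angpt1 lay between -0.2488 and 0.0056 when 1 library was left out (positive without WT replicate 5), and was 0.0312 without the 3 most muscle-rich libraries of each genotype. None of these values passed the threshold. Angpt2 was called in all but 3 fits (replicate block, muscle score, muscle-rich libraries left out) and Angptl2 in all but that with total counts. The Angpt2 to Angpt1 difference was 0.269 without those libraries. With 1 library left out, the within-library differences lay between 0.795 and 1.216 for Angpt2 to Angpt1, 4.933 and 5.611 for Tie1 to Tek, and, relative to endothelial markers, -3.328 and -2.895 for Tek, 2.008 and 2.283 for Tie1 (1.427 to 3.021 with other prior counts) and -2.163 and -1.91 for Angpt2.

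The labels number replicates 1 to 8 in both genotypes, but same-numbered libraries did not deviate together (correlations -0.397 to 0.394, 3 of 8 over 0.1, 2 of 16 libraries closest to their own number). With the replicate block 7010 genes and 5 members were called, Angpt2 being at 0.94 (edgeR adjusted p = 0.0772), and no other member changed its call. Among the tested partner, host and fibrinogen-like genes the block ended the call of Tnc (0.58, edgeR adjusted p = 0.0522) and changed no other. With 8 libraries per genotype and counts as low as those of Angptl6 and Tie1, small differences were not detectable.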
